A study of Mus musculus with 39 samples.

Results

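RNA from the livers of 20-month-old, vehicle-treated male mice was compared with RNA from the livers of 3-month-old male mice, to describe which liver genes differed between these ages. The comparison takes 7 of the 39 libraries of the series, made from 3 old mice (vehicle 3, 4 and 5) and 4 young mice (young 1 to 4), with the numbers as the sample labels give them. Both groups were C57BL/6 mice that lacked perforin (Prf1−/−), the pore-forming protein of cytotoxic lymphocytes, so that no wild-type liver was part of the comparison. From 18 months of age the old mice had been dosed with a DMSO-based vehicle, on 2 successive days in each of 2 months, while the young mice had received nothing, and all were perfused before the organs were taken. Levels are also given for 3 livers of 20-month-old Prf1−/− males dosed on the same schedule with ABT-737, an inhibitor of BCL-2 family proteins. Those livers entered the same fit, and kidney and lung libraries of mice of the same ages and treatments were compared with liver. Neither a time of day of organ collection nor a batch was given for any mouse, so a difference in the hour of collection or in handling cannot be told apart from the difference in age. Of 24537 genes in the count table, 5583 passed the filter on low counts and were tested, of which 34 belong to lists of circadian clock genes, 58 to lists of acute-phase genes and 5491 to neither. Counts on Prf1, the deleted gene, were 1, 0, 0 and 1 in young 1 to 4 and 1, 4 and 0 in vehicle 3, 4 and 5, so the gene was not tested. The genotype rests on the labels, since these counts are too few to check it.

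The liver keeps its own circadian clock, a feedback loop in which CLOCK and BMAL1 (Arntl) switch on the Per, Cry and Rev-erb (Nr1d1, Nr1d2) repressors and the output factor Dbp through E-box motifs, and Rev-erb and ROR proteins set the phase of Arntl, Cry1 and Nfil3 in turn. In such a loop the level of a gene depends on the hour at which the tissue is taken. The acute-phase response is the change in secreted liver proteins that interleukin-6 and related cytokines bring about in inflammation, with serum amyloid A, haptoglobin, orosomucoids, lipocalin-2 and the metal-binding metallothioneins among its members. Adult male mouse liver is also marked by genes that depend on the pulsatile secretion of growth hormone, such as Mup and Hsd3b5, and it holds Kupffer cells, the resident macrophages.

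Total counts were 527995 to 672778 in young 1 to 4 and 223957, 847846 and 891116 in vehicle 3, 4 and 5. Vehicle 3 was the shallowest library and stood apart from the others on the first principal component of the log2 levels, which carried 47.7% of the variance (73.65 against 17.93 and 10.66 for vehicle 4 and 5, and −35.75 to −30.51 for the young livers). Its level of albumin (Alb, the main plasma protein made by hepatocytes) was 8907 CPM (counts scaled to the TMM-normalized library size), against 33482 and 31521 CPM in vehicle 4 and 5 and 31027 to 40837 CPM in the young livers. The deviation of a library from the young livers also ran with the GC content of the last 500 bases of the transcript. Over 2425 well-expressed genes, Spearman's correlation of deviation with GC content was 0.515 in vehicle 3, 0.248 in vehicle 4 and 0.308 in vehicle 5, against −0.172 to 0.125 in the young livers and 0.279 to 0.363 in 3 livers of old mice given ABT-737, an inhibitor of BCL-2 family proteins. In vehicle 3, the genes in the low-GC group lay at a median log2 difference of −0.84 and those in the high-GC group at 0.47. Some results are therefore also given without vehicle 3 and after correcting each library for its trend with GC content, a correction chosen after the data were seen. Levels of a gene are given in the order of young 1 to 4 and vehicle 3 to 5. The part of this trend in any single result beyond those values was not tested.

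**Figure D1:**
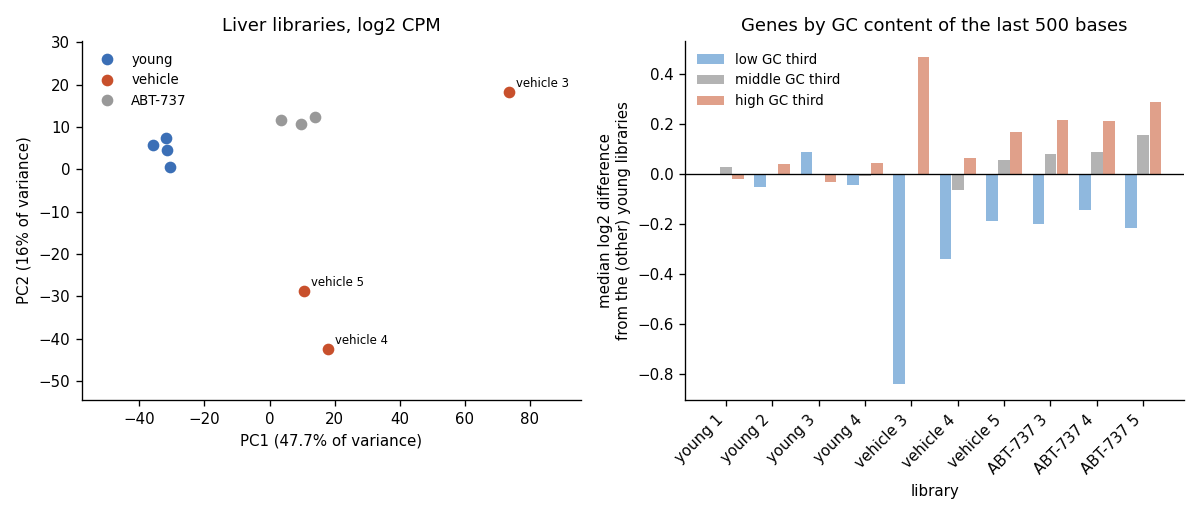
The left plot places the 10 liver libraries on the first and second principal components of log2 CPM, and the right plot gives, for each library, the median log2 difference from the young livers of genes with low, middle and high GC content in their last 500 bases. Vehicle 3 lies far to the right at 73.65 on the first component and has the widest gap between the low-GC (−0.84) and high-GC (0.47) genes.

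The livers of old vehicle-treated mice differed from young livers in 1261 of 5583 genes (22.6%) at an adjusted p under 0.05 (edgeR's quasi-likelihood test, Benjamini-Hochberg), of which 656 were higher (11.7% of genes tested) and 605 were lower (10.8%) in the old. Clock genes accounted for 17 of the calls (5 higher and 12 lower, of 34 tested) and acute-phase genes for 35 (30 higher and 5 lower, of 58 tested). The remaining 1209 calls, 621 higher and 588 lower, were 95.9% of all calls and 22% of the 5491 genes outside both sets of lists. The clock lists hold only 34 and the acute-phase lists 58 of the 5583 genes tested, so list size bounds their share of the calls. Any genes of the clock or the acute phase that are not on the lists remain among the others. Among these other genes, 309 higher and 267 lower ones had groups that did not overlap and stayed past the threshold whichever of the 7 libraries was left out. The libraries of the groups did not overlap for 1834 genes (32.8%). Without vehicle 3 there were 1486 calls among 6026 genes (24.7%), 21 of them clock, 44 acute-phase and 1421 other genes. After the correction for GC content there were 1144 calls, 18 clock, 34 acute-phase and 1092 other genes, and 939 were the same genes as before. Higher calls then outnumbered lower ones by 699 to 445, and the median GC content of the last 500 bases had been 51.2% for genes called higher, 40% for genes called lower and 47.2% for the others.

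Among the core clock genes, Dbp and Nr1d1, both targets of CLOCK and BMAL1, were lower in the old livers, and Nfil3, Cry1 and Rora were among those that were higher. Of 11 core genes tested, 4 were higher and 2 lower, against 11.7% and 10.8% over all genes. Dbp (chr7:45705247-45710203 of mm10), which encodes the D-box-binding activator of clock output, had 213, 303, 292 and 326 CPM in young and 8.73, 5.85 and 11.6 CPM in vehicle. The old livers were lower than every young one by a wide margin (log2 fold change −5.0 ± 0.32 (SE), adjusted p = 2.53e-07). Sphk2, a sphingosine kinase gene that overlaps Dbp on the opposite strand, went the other way, from 63.3 to 89.4 CPM in young to 103 to 176 CPM in vehicle (log2 fold change 0.95 ± 0.27 (SE), adjusted p = 0.0184), although that call was lost without young 1, young 4 or vehicle 5. Nr1d1 (chr11:98767932-98775377), which encodes the repressor Rev-erbα, had 32.9, 76.0, 86.0 and 72.9 CPM in young and 4.36, 1.17 and 3.85 CPM in vehicle. These vehicle levels come from 1 to 3 counts a library, and again no old liver reached a young one (log2 fold change −4.53 ± 0.52 (SE), adjusted p = 3.36e-05). Nfil3 (chr13:52967209-52981039), the repressor that competes with Dbp for D-boxes, had 3.87, 2.98, 4.61 and 5.75 CPM in young and 21.8, 42.1 and 28.3 CPM in vehicle, so that each old liver exceeded all young ones (log2 fold change 2.88 ± 0.42 (SE), adjusted p = 2.12e-04).

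The nuclear receptor gene Rora had 44.5, 61.1, 64.5 and 26.9 CPM in young and 69.8, 129 and 91.2 CPM in vehicle, and the groups did not overlap (log2 fold change 1.0 ± 0.28 (SE), adjusted p = 0.0190). That call was lost without young 1, young 4 or vehicle 4 (log2 fold change 0.73 without vehicle 4), and the log2 fold change became 1.66 after GC-content correction. Cry1, which encodes a late repressor of the loop, had 11.6, 2.98, 7.68 and 9.59 CPM in young and 8.73, 31.6 and 28.3 CPM in vehicle, so vehicle 3 lay among the young livers while vehicle 4 and 5 lay above them (log2 fold change 1.73 ± 0.46 (SE), adjusted p = 0.0125). Its call was lost without vehicle 4, which also brought the number of core genes called higher from 4 to 2. Hlf, a relative of Dbp, had 46.5, 44.7, 47.6 and 51.8 CPM in young and 30.5, 19.9 and 32.1 CPM in vehicle. The 3 old livers were the lowest, but the gene missed the threshold (log2 fold change −0.83 ± 0.30 (SE), adjusted p = 0.0575), which it passed without vehicle 3 (adjusted p = 0.0464). Hlf passed in no other fit that left out a library, and after GC-content correction its log2 fold change was −0.45 (adjusted p = 0.341). Tef (−0.37), Cry2 (−0.09), Bhlhe40 (−0.76, −0.16 after GC-content correction) and Per1 (0.01, all log2 fold changes) were not called and overlapped between the groups, and Per1 ranged from 12.8 to 43.6 CPM in the old livers alone.

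The other 8 core genes had too few counts to be tested. Nr1d2, the second Rev-erb gene, had 6, 9, 8 and 11 counts in young 1 to 4 and 0 in each vehicle library, and Ciart, a repressor expressed with it, had 4, 12, 3 and 7 against 0, 2 and 1. Per3 had 9, 7, 3 and 5 counts against 0, 0 and 3, and Per2 had 0, 3, 7 and 2 against 0, 0 and 2. Arntl, the gene of BMAL1, had 0, 0, 1 and 0 counts in the young livers and 0, 8 and 10 in vehicle 3, 4 and 5, where vehicle 3 is also the library with fewest counts in all. Clock had 3 to 5 counts in young and 5, 10 and 9 in vehicle, and Npas2 and Bhlhe41 had at most 4 counts in any library. Livers of old mice given ABT-737 were on the side of the vehicle livers for the called core genes with the widest gaps. Their levels were 3.96, 9.48 and 9.90 CPM for Dbp, 7.93, 1.90 and 2.48 CPM for Nr1d1 and 31.7, 36.0 and 19.8 CPM for Nfil3.

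**Figure D2:**
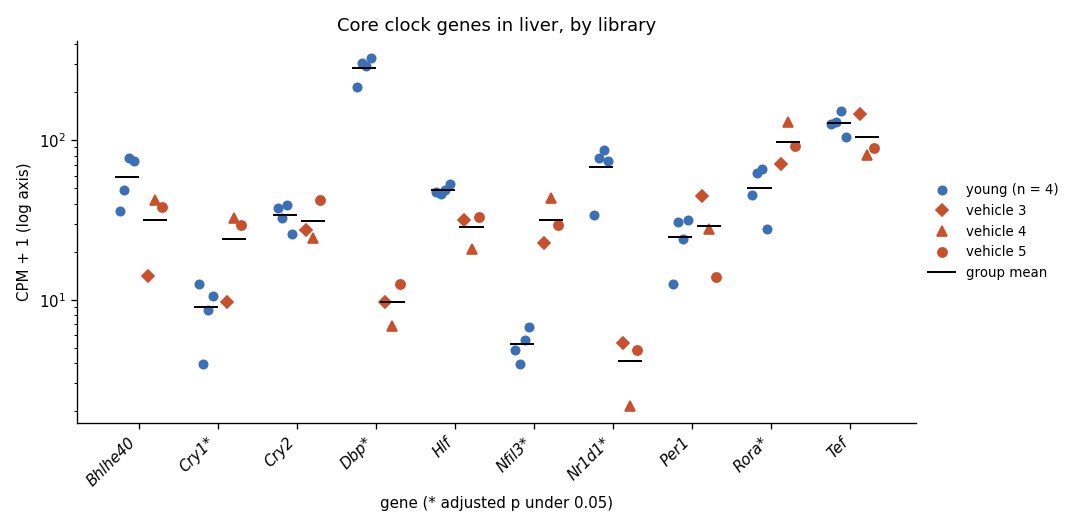
Each point is the level of a core clock gene in 1 liver library (CPM + 1, log axis), blue for the 4 young mice and orange for the 3 old vehicle-treated mice, with a bar at each group mean and a star at genes with an adjusted p under 0.05. The groups are furthest apart for Dbp and Nr1d1, which are lower in the old livers, and for Nfil3, which is higher.

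E-boxes (CACGTG) and D-boxes (TTATGTAA or TTACGTAA) were looked for on both strands in the 250 bases before the RefSeq start of each core gene (GRCm38.p6). Windows were held for 16 core genes, 9 of them tested, and 3 of these 9 (Cry1, Per1 and Tef) had an E-box, against 6.02% of 32851 windows of this length, while 0 had a D-box, against 0.931%. The letters are absent from the windows of Dbp and Nr1d1, which says nothing of more distant sites. The window of Cry1, the called core gene with an E-box, is shown for chr10:85185055-85185304 on the minus strand, 5′ to 3′, with the E-box in capitals 60 bases before the start.

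Cry1: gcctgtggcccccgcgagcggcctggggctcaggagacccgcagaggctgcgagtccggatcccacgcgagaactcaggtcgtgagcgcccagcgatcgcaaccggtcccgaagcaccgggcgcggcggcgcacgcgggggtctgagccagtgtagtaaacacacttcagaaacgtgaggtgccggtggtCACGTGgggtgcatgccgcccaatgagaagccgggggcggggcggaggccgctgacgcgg

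Genes of the clock's output in liver were mostly lower in the old animals. Of 23 tested, 10 were lower (against 10.8% of all genes) and 1 was higher, with a median log2 fold change of −0.99 against 0.02 over all genes tested, −1.42 without vehicle 3 and −1.18 after GC-content correction. Alas1, the rate-limiting enzyme of haem synthesis, had 1127, 1802, 2011 and 1799 CPM in young and 309.8, 498 and 181 CPM in vehicle. No old liver reached the young range (log2 fold change −2.35 ± 0.34 (SE), adjusted p = 2.13e-04). Lpin1, a phosphatidate phosphatase of lipid synthesis, had 523, 590.1, 1026 and 623 CPM in young and 105, 163 and 169.5 CPM in vehicle. Lpin1 passed the test (log2 fold change −2.21 ± 0.35 (SE), adjusted p = 3.97e-04). Coq10b, which takes part in the use of coenzyme Q, had 32.9, 38.7, 46.1 and 34.5 CPM in young and 0, 4.68 and 2.57 CPM in vehicle, separating the groups completely (log2 fold change −3.50 ± 0.48 (SE), adjusted p = 1.52e-04; −4.12 without vehicle 4). The creatine transporter gene Slc16a12 (−2.80, −3.40 without vehicle 5), the NAD-synthesis gene Nampt (−2.29) and the liver glycogen synthase Gys2 (−1.42, log2 fold changes) also fell. The 1 gene that rose was Tspan4 (1.16), which encodes a tetraspanin, and 2 rose without vehicle 5 or after GC-content correction.

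Dbp, Nr1d1 and Nfil3 moved in the same direction in the other organs. In kidney and lung, the log2 fold changes were −3.96 and −5.01 for Dbp and −3.21 and −5.86 for Nr1d1. Nfil3 rose, by 2.05 and 1.51. All 6 had an adjusted p under 0.05 in a joint fit of the 3 tissues. For none of the 11 core genes did the liver difference depart from the kidney difference at this threshold, which only 0.786% of 13107 genes did. From lung, the liver departed in 11.4% of all genes and in 3 of the 11 core genes, with a difference of log2 fold changes of 1.76 for Hlf (adjusted p = 0.00322), 1.66 for Rora (adjusted p = 0.00764) and 1.23 for Tef (adjusted p = 0.0252). In lung Hlf fell by 2.57 and Tef by 1.60.

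**Figure D3:**
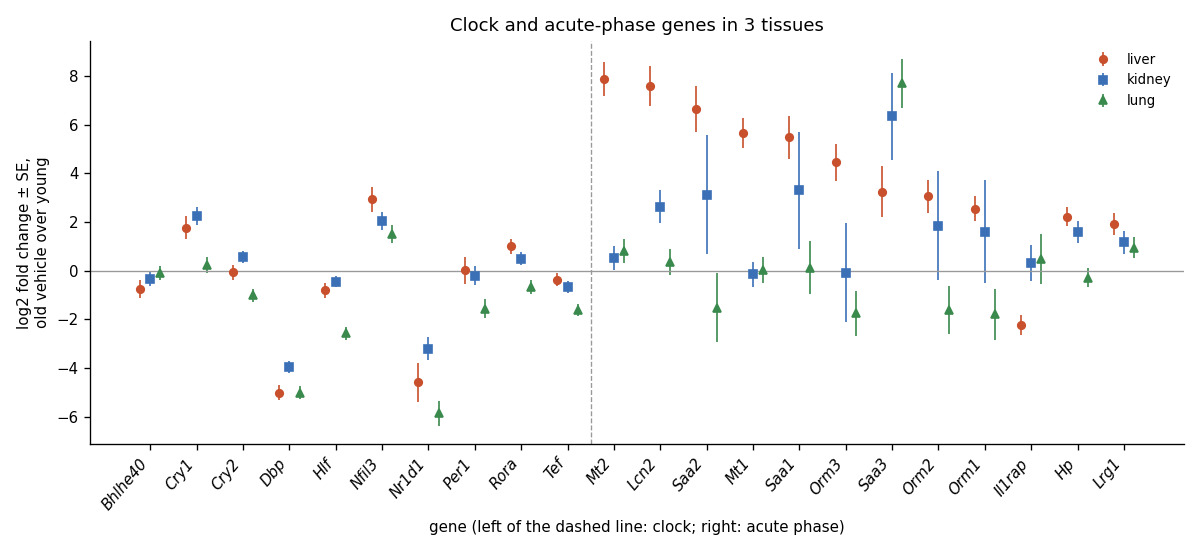
Points give the log2 fold change between old vehicle-treated and young mice, with its SE, in liver, kidney and lung, for core clock genes left of the dashed line and for the named acute-phase genes right of it. Dbp and Nr1d1 lie below 0 and Nfil3 above it in the 3 tissues, whereas Mt2 and Mt1 stand high in liver and near 0 in kidney and lung.

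Genes of acute-phase proteins were higher in the old livers, and by very different amounts from mouse to mouse. Of 31 tested, 20 were higher and 2 lower (0 lower without young 3 or vehicle 4, 1 without young 2 or vehicle 5), against 11.7% and 10.8% of all genes, and their summed level was 47544, 57780, 45239 and 50760 CPM in young 1 to 4 and 60446, 140470 and 176350 CPM in vehicle 3, 4 and 5. The metallothionein gene Mt2 (chr8:94172618-94173567) had 13.6, 8.94, 13.8 and 7.67 CPM in young and 367, 5535 and 1804 CPM in vehicle. Each old liver was above all young ones, with vehicle 4 the highest (log2 fold change 7.84 ± 0.83 (SE), adjusted p = 1.69e-05), and without vehicle 4 the log2 fold change was 6.62. Its neighbour Mt1 had 75.5, 115, 35.3 and 24.9 CPM in young and 388, 6951 and 2160.2 CPM in vehicle, in the same order (log2 fold change 5.65 ± 0.79 (SE), adjusted p = 1.53e-04; 4.35 without vehicle 4). Lcn2, which encodes the iron-carrier-binding lipocalin-2 made by both hepatocytes and neutrophils, had 0, 13.4, 0 and 1.92 CPM in young and 82.9, 961 and 1298 CPM in vehicle, with young 2 apart from the other young livers (log2 fold change 7.49 ± 0.97 (SE), adjusted p = 8.26e-05; 9.87 without young 2).

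Saa2 (chr7:46751833-46754314), whose near-identical copy is Saa1, had 25.2, 298, 47.6 and 57.5 CPM in young and 515, 6992 and 23932 CPM in vehicle. Vehicle 5 was the highest and vehicle 3 the lowest of the old livers, not far above young 2 (log2 fold change 6.59 ± 1.05 (SE), adjusted p = 4.17e-04; 7.86 without young 2 and 5.11 without vehicle 5). Saa1 had 101, 602, 76.8 and 152 CPM in young and 947, 7766 and 21559 CPM in vehicle (log2 fold change 5.43 ± 0.90 (SE), adjusted p = 5.50e-04; 6.49 without young 2 and 4.21 without vehicle 5). Reads of the pair may be split between the copies, so these values are uncertain one by one. Saa3, the form made outside hepatocytes as well, was more even, with 7.74, 11.9, 13.8 and 19.2 CPM in young and 87.3, 143 and 135 CPM in vehicle. Saa3 passed the test (log2 fold change 3.24 ± 0.31 (SE), adjusted p = 7.13e-06). The orosomucoid genes Orm3 (4.38, and 5.25 without young 2 and 3.14 without vehicle 5), Orm2 (3.02, and 2.40 without vehicle 5) and Orm1 (2.52) rose without overlap between the groups, and they too are close copies of each other. Hp, the haemoglobin-binding haptoglobin, had 4078, 5948, 4093 and 4690.3 CPM in young and 16308, 20467 and 28732 CPM in vehicle, 3 old livers above 4 young ones (log2 fold change 2.22 ± 0.28 (SE), adjusted p = 7.82e-05). Lrg1, a leucine-rich secreted glycoprotein, also rose (log2 fold change 1.90 ± 0.38 (SE), adjusted p = 0.00218), though vehicle 3 with 2278 CPM lay below young 2 with 2289 CPM.

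In the livers of old mice given ABT-737, Saa2 had 321, 62.6 and 104 CPM, Lcn2 71.3, 7.59 and 2.48 CPM and Mt2 563, 178 and 111 CPM in replicates 3, 4 and 5, so that Saa2 lay above the young range in replicate 3 and within it in replicates 4 and 5, while Mt2 lay above it in all 3. Mt2 (log2 fold change 0.54 in kidney and 0.81 in lung) and Mt1 (−0.14 and 0.02) were not called in the other organs. The liver difference exceeded that of kidney by 7.35 on the log2 scale for Mt2 (adjusted p = 7.35e-06) and by 5.81 for Mt1 (adjusted p = 1.50e-04), and that of lung by 7.07 and 5.64 (adjusted p = 2.63e-06 and 4.29e-05). Saa3 went the other way, with a log2 fold change of 7.70 in lung and a liver difference below that of lung (log2 difference −4.45, adjusted p = 0.0494).

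**Figure D4:**
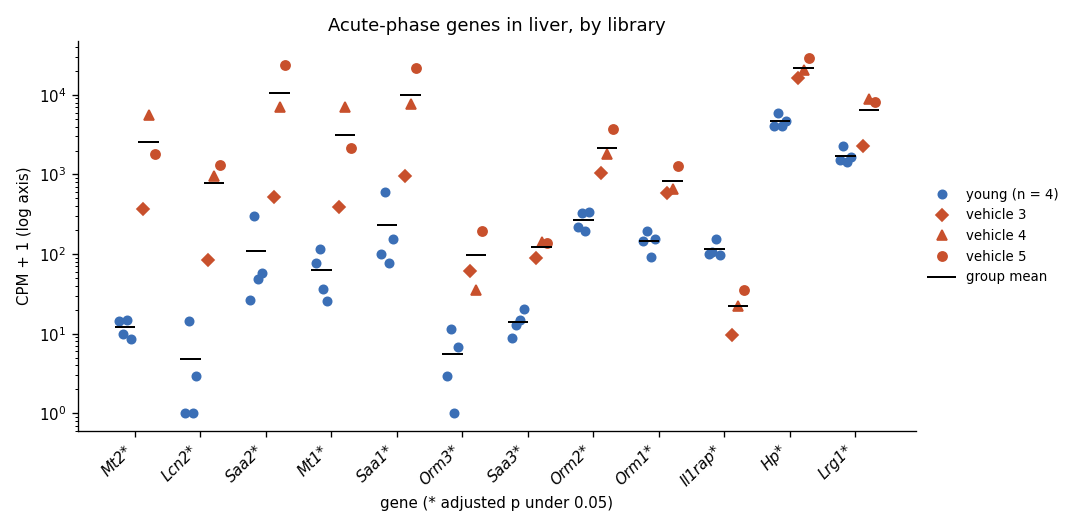
Each point is the level of a named acute-phase gene in 1 liver library (CPM + 1, log axis), blue for the 4 young mice and orange for the old vehicle-treated mice, with a bar at each group mean. The 3 old livers lie above the young ones for each gene except Il1rap, where they lie below, and Lrg1, where vehicle 3 lies within the young range.

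Metal response element cores (TGCACNC or TGCGCNC) on either strand within 250 bases before the start were found in 4 of 23 tested acute-phase protein genes with a window and in 3 of the 15 called higher among them, against 21.4% of all windows. The shares are near that of all windows, and the sequences are shown for the metallothionein genes because these had the largest and the fourth largest log2 fold change among the acute-phase genes. Both windows lie on the plus strand, chr8:94178839-94179088 for Mt1 and chr8:94172368-94172617 for Mt2, with the cores in capitals, at 23 bases before the start in Mt1 and at 223, 128 and 50 bases in Mt2.

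Mt1: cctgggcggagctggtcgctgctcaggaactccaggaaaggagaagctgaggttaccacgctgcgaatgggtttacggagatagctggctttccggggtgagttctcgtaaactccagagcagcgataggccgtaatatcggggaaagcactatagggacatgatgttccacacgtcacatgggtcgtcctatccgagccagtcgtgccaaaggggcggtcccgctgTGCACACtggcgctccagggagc

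Mt2: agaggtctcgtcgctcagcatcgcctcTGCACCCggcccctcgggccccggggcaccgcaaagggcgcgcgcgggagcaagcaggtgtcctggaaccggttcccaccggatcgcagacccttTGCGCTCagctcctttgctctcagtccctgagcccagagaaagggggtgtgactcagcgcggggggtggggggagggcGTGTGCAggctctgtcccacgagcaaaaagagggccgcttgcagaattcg

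Genes that carry the acute-phase signal also rose, with 9 of 13 tested higher and 1 lower (median log2 fold change 1.08). Fewer were called higher without young 4 (5) or vehicle 4 (4). Stat3, the transcription factor downstream of interleukin-6, had 56.2, 67.1, 75.3 and 69.1 CPM in young and 166, 267 and 164 CPM in vehicle. Stat3 passed the test (log2 fold change 1.59 ± 0.28 (SE), adjusted p = 9.04e-04). The receptor subunits Il6st (1.08) and Il6ra (1.40), the adhesion molecule Icam1 (1.78) and the transcription factor Cebpd (1.43, log2 fold changes, the last lost without vehicle 4) were all above young. Il1rap, the accessory chain of the interleukin-1 receptor, was the exception, with 101, 106, 154 and 95.9 CPM in young and 8.73, 21.1 and 34.7 CPM in vehicle. Il1rap passed the test (log2 fold change −2.22 ± 0.33 (SE), adjusted p = 2.59e-04). Of 14 plasma protein genes known to fall in an acute-phase response, 2 were lower (1 without young 1, young 2, young 3 or vehicle 4) and 1 higher (2 without vehicle 3 or vehicle 4), against 10.8% and 11.7% over all genes. Serpina6, the corticosteroid-binding globulin, fell (log2 fold change −1.10 ± 0.23 (SE), adjusted p = 0.00300), as did Apom (−0.89, lost without young 1, young 2, young 3, vehicle 3 or vehicle 4), while Fetub, a fetuin, rose (log2 fold change 0.96 ± 0.21 (SE), adjusted p = 0.00400). Of 33 complement and coagulation genes, 4 were higher and 4 lower, near the 11.7% and 10.8% over all genes. Those higher were led by C4b (1.08) and C2 (1.04), and those lower by F13b (−2.24) and F11 (−1.48). Without vehicle 4, 2 of these were called lower.

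Outside the clock and acute-phase lists, genes of antigen presentation and of leukocytes were higher in the old livers. In bulk tissue, more cells of a type and more RNA per cell cannot be told apart. Of 11 listed genes of MHC class II 6 were tested, and all 6 of these were higher. MHC class II presents peptides to helper T cells. The median log2 fold change was 3.15 (2.85 without vehicle 3), and the summed level was 449, 681, 605 and 750.1 CPM in young 1 to 4 and 7078, 5451 and 2958 CPM in vehicle 3, 4 and 5. Cd74, the invariant chain, had 83.3, 109, 90.6 and 129 CPM in young and 1754, 1019.6 and 660.1 CPM in vehicle, with vehicle 3 the highest (log2 fold change 3.46 ± 0.32 (SE), adjusted p = 5.42e-06). H2-Aa, an α chain, had 126, 209, 229 and 234 CPM in young and 2369.7, 2271 and 958 CPM in vehicle. H2-Aa passed the test (log2 fold change 3.22 ± 0.34 (SE), adjusted p = 1.69e-05). No old liver overlapped a young one for either gene. In the ABT-737-treated livers the class II sum was 832, 611 and 1193 CPM.

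Of 40 genes of Kupffer cells and macrophages 23 were tested, and 18 were higher and 1 lower (0 lower without vehicle 4; median 1.94). The sum over all 40 was 927 to 1301 CPM in the young livers and 3408, 4086 and 4238 CPM in vehicle 3, 4 and 5. C1qa, a complement subunit made by macrophages, had 98.7, 115, 126 and 123 CPM in young and 855, 713 and 713 CPM in vehicle. C1qa passed the test (log2 fold change 2.71 ± 0.23 (SE), adjusted p = 2.83e-06). Clec4f, a lectin found on Kupffer cells and named after its values were seen, had 112, 176, 151 and 155 CPM in young and 467, 475 and 470.1 CPM in vehicle, close to equal in the 3 old livers (log2 fold change 1.66 ± 0.23 (SE), adjusted p = 1.53e-04). Laptm5 (2.87), the haem oxygenase gene Hmox1 (2.94), C1qc (2.07) and the Fc receptor chain Fcer1g (2.59, log2 fold changes) rose as well. Defining macrophage genes stayed below the test's filter, with Adgre1 (F4/80) at 3, 2, 6 and 5 counts in young and 0, 5 and 9 in vehicle. Timd4, a marker of resident Kupffer cells, had 2, 1, 1 and 3 against 0, 3 and 5 counts, and both genes were picked after their values were seen.

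T and natural killer cell genes were scarce in young liver, where the sum over 32 listed genes was 37.3 to 59.9 CPM, and reached 445, 649.7 and 624 CPM in vehicle 3, 4 and 5 against 135, 83.5 and 151 CPM in the ABT-737-treated livers. Only 4 passed the filter on low counts, and all 4 were higher, which the filter itself favours for genes near 0 in the other group. Ccl5, a chemokine of cytotoxic lymphocytes that draws other leukocytes, had 5.81, 5.96, 6.14 and 11.5 CPM in young and 218, 352 and 275 CPM in vehicle. Ccl5 passed the test (log2 fold change 5.26 ± 0.39 (SE), adjusted p = 8.46e-07). Nkg7, a granule protein of these cells, had 2 counts over the 4 young livers and 74 over the 3 old ones, a ratio of levels of 46.9 with a 95% counting interval of 12.5 to 394. Thy1, a surface protein of T cells, had 3.87, 0, 6.14 and 0 CPM in young and 43.6, 57.4 and 56.5 CPM in vehicle (log2 fold change 4.29 ± 0.57 (SE), adjusted p = 1.12e-04; 5.26 without young 3). The T cell receptor genes Cd3e and Cd3d were at 0 to 1 counts in each young liver and at 2, 10 and 7 and at 2, 5 and 10 counts in vehicle 3, 4 and 5. Both were named after their values were seen.

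Of 4 tested genes of B and plasma cells, 2 were higher, Cd74 again and the proteoglycan Sdc1 (1.27), which hepatocytes also express. Counts of the B cell gene Cd79b, with 3, 1, 2 and 1 in young and 3, 50 and 5 in vehicle, were highest in vehicle 4. In the shallow vehicle 3, 3 counts are 13.09 CPM. Mzb1, of the same list, had 0 counts in each young liver and 15, 26 and 3 in vehicle 3, 4 and 5. Of 17 neutrophil genes 2 were tested, Lcn2 and Wfdc21 (0.71, adjusted p = 0.0732). S100a9, the calprotectin subunit of neutrophils, had 0, 0, 0 and 1 counts in young and 1, 23 and 6 in vehicle, and Camp, a granule protein, 0, 1, 0 and 0 against 0, 21 and 7. Prtn3, the neutrophil proteinase 3, was among the genes that rose most, with 0, 7.45, 0 and 0 CPM in young and 13.1, 187 and 194 CPM in vehicle (log2 fold change 5.95 ± 0.97 (SE), adjusted p = 4.88e-04; 9.22 without young 2). Its counts in vehicle were 3, 160 and 151, while Elane and Mpo, both on the neutrophil list, had only 0, 6 and 3 and 1, 3 and 1. The cell source of Prtn3 was not tested. These B cell and neutrophil counts, named after their values were seen except for Prtn3, were uneven between the old mice, and their part in the other results was not tested.

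Interferon-response genes were higher in 19 of 24 tested and lower in 0 (median log2 fold change 1.83), with a sum of 1048 to 1255 CPM in young and 4146, 3976 and 2874 CPM in vehicle 3, 4 and 5. Irf7, the transcription factor that amplifies the interferon response, had 81.3, 103, 114 and 74.8 CPM in young and 524, 712 and 325 CPM in vehicle. Irf7 passed the test (log2 fold change 2.47 ± 0.32 (SE), adjusted p = 7.82e-05). Serpina3g, a serine protease inhibitor that overlaps Serpina3f on the same strand, had 9.68, 11.9, 9.22 and 15.3 CPM in young and 192, 153 and 79.6 CPM in vehicle. Serpina3g passed the test (log2 fold change 3.54 ± 0.34 (SE), adjusted p = 7.13e-06). Igtp, an immunity-related GTPase, had 42.6, 50.7, 73.7 and 48.0 CPM in young and 393, 165 and 352 CPM in vehicle, with vehicle 3 and 5 above vehicle 4 (log2 fold change 2.46 ± 0.36 (SE), adjusted p = 2.13e-04). Ifi27l2a (2.54), Ifi27l2b (3.22) and the transcription factor Irf8 (2.84) rose without overlap between the groups. Of 14 genes of MHC class I and the immunoproteasome, which cut and present peptides to cytotoxic T cells, 12 were higher and 0 lower (median 1.29). The proteasome subunit Psmb8 had 77.4, 83.5, 99.8 and 115 CPM in young and 602, 316 and 366 CPM in vehicle (log2 fold change 2.16 ± 0.32 (SE), adjusted p = 2.70e-04), the peptide transporter Tap1 rose by 1.63 and the class I chain H2-D1 by 1.28 on the log2 scale. H2-Q7 shares identical counts with H2-Q9 and cannot be told apart from it. Among 8 chemokine genes, 5 were higher and 0 lower. Besides Ccl5, the T cell attractants Cxcl9 (2.99, 2.38 without vehicle 4) and Cxcl10 (1.66), which interferon-γ induces, the scavenger chemokine Cxcl16 (1.48) and the neutrophil attractant Cxcl1 (1.81) rose, the last with 0 CPM in vehicle 3 and 69.1 and 66.8 CPM in vehicle 4 and 5 against 13.4 to 18.4 CPM in young. The call of Cxcl1 was lost without any 1 of the libraries other than vehicle 3.

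Interferon response elements (GAAANNGAA, either strand) lay within 250 bases before the start in 9 of 17 tested interferon-response genes with a window and in 7 of 14 called higher, against 7.13% of all windows. The list was made of known interferon-induced genes, so this share describes the list and not the old livers. Windows are shown for Isg15 (log2 fold change 1.83), which encodes a ubiquitin-like protein, for Bst2 (1.51), which encodes the virus-tethering protein tetherin, and for Igtp, chosen after their values were seen because their elements are close to the start. The call of Isg15 was lost without vehicle 4. They lie at chr4:156200819-156201068 (minus strand), chr8:71537473-71537722 (minus strand) and chr11:58199306-58199555 (plus strand), with the elements in capitals. Those of Isg15 overlap and begin 78, 72 and 66 bases before the start, those of Bst2 begin at 130 and 124 bases and the one of Igtp at 34 bases.

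Isg15: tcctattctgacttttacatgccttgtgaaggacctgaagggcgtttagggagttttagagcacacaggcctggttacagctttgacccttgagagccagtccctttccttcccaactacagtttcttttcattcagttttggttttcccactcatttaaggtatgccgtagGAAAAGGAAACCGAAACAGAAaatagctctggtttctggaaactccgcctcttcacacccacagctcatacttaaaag

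Bst2: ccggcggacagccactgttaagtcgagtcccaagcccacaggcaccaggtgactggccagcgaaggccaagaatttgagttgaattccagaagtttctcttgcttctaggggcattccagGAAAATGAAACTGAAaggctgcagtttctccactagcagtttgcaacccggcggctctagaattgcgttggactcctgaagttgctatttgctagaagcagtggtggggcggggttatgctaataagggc

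Igtp: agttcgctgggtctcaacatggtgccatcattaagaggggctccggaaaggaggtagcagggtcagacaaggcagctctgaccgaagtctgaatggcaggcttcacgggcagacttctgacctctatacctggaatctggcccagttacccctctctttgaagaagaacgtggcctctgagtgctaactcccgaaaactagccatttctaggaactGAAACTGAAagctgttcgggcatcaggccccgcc

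Markers of blood also differed, although the mice were perfused. Of 7 tested red blood cell genes, 6 were higher, all of them globin genes that share reads in pairs. Hba-a1, an α-globin, had 234, 90.9, 59.9 and 117 CPM in young and 912, 722 and 846 CPM in vehicle (log2 fold change 2.73 ± 0.39 (SE), adjusted p = 1.86e-04), and the summed level was 1665, 709, 522 and 996 CPM in young 1 to 4, 4569, 3981 and 4550.4 CPM in vehicle 3, 4 and 5 and 3622, 1603 and 2518 CPM in the ABT-737-treated livers. Alas2, the haem enzyme of erythroid cells, did not pass (−0.23, adjusted p = 0.713), with 129.7, 118, 157 and 178 CPM in young and 262, 53.8 and 96.3 CPM in vehicle. Without vehicle 3 it was called lower (log2 fold change −0.95, adjusted p = 0.0114). The globin sum and the leukocyte sums were both higher in the old livers, and the part of residual blood in the leukocyte results was not tested. Skeletal muscle genes summed to 0 to 3.84 CPM in all libraries but vehicle 5, where they reached 127 CPM, and exocrine pancreas genes were highest in young 1 (438 CPM against 38.5 to 175 CPM in the other 6). Of 3 tested pancreas genes 1 was lower, the elastase Cela1 (−1.47), and of 2 adipocyte genes 1 was higher, the lipid droplet gene Cidec (2.17), whose call was lost without any 1 of the libraries other than vehicle 5 and after GC-content correction. Adipocyte genes summed to 28.8 to 49.2 CPM in young, 82.9, 172 and 71.9 CPM in vehicle 3, 4 and 5 and 155, 101 and 74.3 CPM in the ABT-737-treated livers. The untested Fabp4, named after its values were seen, had 7, 5, 2 and 3 counts in young and 5, 42 and 8 in vehicle. The part of adipose tissue in the other results, including those that rest on vehicle 4, was not tested.

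Among genes tied to cell cycle arrest and senescence, Cdkn1a (chr17:29093769-29100722), which encodes the cyclin-dependent kinase inhibitor p21, showed the widest increase, with 3.87, 7.45, 4.61 and 3.84 CPM in young and 419, 453 and 66.8 CPM in vehicle. Vehicle 3 and 4 were alike, vehicle 5 lower, and all 3 far above the young livers (log2 fold change 5.86 ± 0.62 (SE), adjusted p = 1.69e-05). Its levels in the ABT-737-treated livers were 249.7, 478 and 297 CPM. The liver difference exceeded that of kidney by 3.86 (adjusted p = 0.0154) and that of lung by 4.90 (adjusted p = 2.74e-04). Cdkn2a, the gene of p16, had 0 counts in each young liver and 0, 2 and 2 counts in vehicle 3, 4 and 5, and Cdkn2b, the gene of p15, 0 throughout except for 1 count in vehicle 5, so at this depth no difference was detectable for either. Of 11 senescence genes tested, 6 were higher and 0 lower (median 1.06), but 3 without young 1, 3 without young 4 and 2 without vehicle 4. They include the anti-apoptotic genes Bcl2, with 11.6, 1.49, 1.54 and 0 CPM in young and 26.2, 32.8 and 47.5 CPM in vehicle (log2 fold change 3.36 ± 0.61 (SE), adjusted p = 0.00104; 4.80 without young 1), and Bcl2l1 (1.06), and the stress-induced cytokine Gdf15 (1.43). The call of Bcl2l1 was lost without young 1, young 4 or vehicle 4 and after GC-content correction, and that of Gdf15 without young 1, young 2 or vehicle 4. Bcl2 is also expressed by lymphocytes. Of 4 cell cycle genes tested, 1 was higher, the tubulin gene Tubb5 (0.72), whose call was lost without young 2, young 3, young 4 or vehicle 4.

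Genes of the extracellular matrix and stellate cells were higher in 11 of 17 tested and lower in 0 (median 1.07), and in 7 without vehicle 4. Lgals3, a galectin of macrophages and activated stellate cells, had 15.5, 31.3, 12.3 and 11.5 CPM in young and 78.6, 131 and 103 CPM in vehicle. Lgals3 passed the test (log2 fold change 2.56 ± 0.37 (SE), adjusted p = 1.93e-04). The intermediate filament genes Des (1.86) and Vim (2.05, 1.41 without vehicle 4), the calcium-binding S100a6 (2.87), the galectin Lgals1 (1.83) and the collagenase activator Mmp14 (1.31) rose too. The collagen genes Col1a1 (6, 6, 3 and 4 counts in young, 5, 37 and 8 in vehicle) and Col1a2 (4, 6, 8 and 7 against 1, 28 and 10) did not pass the filter on low counts and were not tested. Other untested members of the list went the other way, among them the collagen gene Col3a1 (7, 10, 9 and 11 against 0, 9 and 0) and Reln (5, 9, 5 and 13 against 0, 2 and 5). All of these untested genes were named after their values were seen. Of 4 cholangiocyte genes 2 were higher, the transcription factor Sox9, with 7.74, 7.45, 15.4 and 3.84 CPM in young and 21.8, 83.1 and 57.8 CPM in vehicle (log2 fold change 2.74 ± 0.45 (SE), adjusted p = 5.05e-04), and the keratin Krt18 (0.80). The call of Krt18 was lost after GC-content correction and without young 3 or young 4, where 1 cholangiocyte gene was higher, while 3 were higher without vehicle 3. Of 12 endothelial genes 3 were higher (Icam1, Eng and Pecam1, 1.78, 0.80 and 0.94) and 0 lower, against 11.7% and 10.8% over all genes. The call of Eng was lost without young 4 and after GC-content correction, and that of Pecam1 without young 1, young 2, young 3, vehicle 3 or vehicle 4. Without young 1, 2 endothelial genes were called lower, and without vehicle 3, 1.

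**Figure D5:**
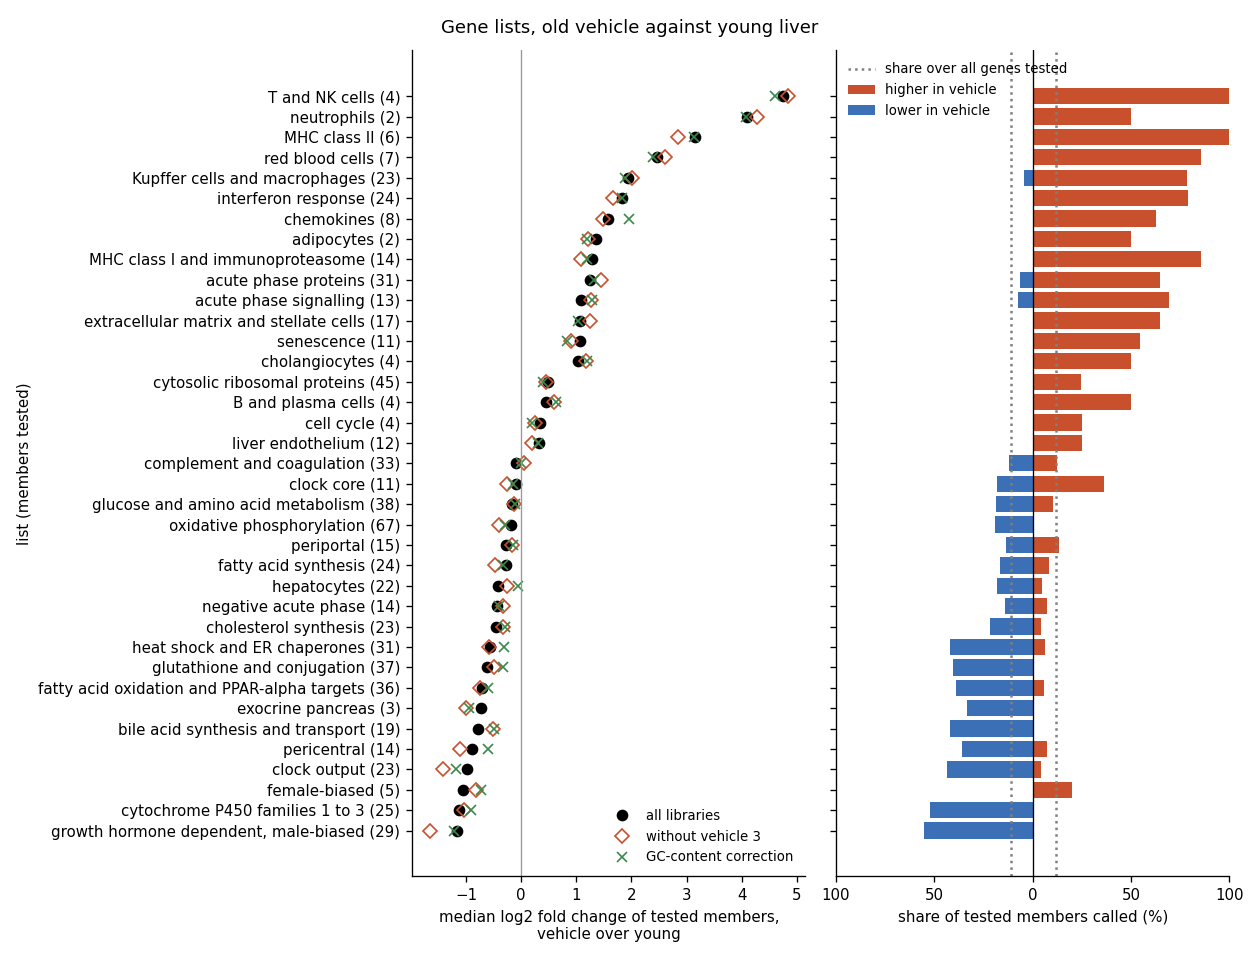
For 37 gene lists with at least 1 tested member (number in brackets), the left plot gives the median log2 fold change of tested members over all libraries (filled circles), without vehicle 3 (open diamonds) and after GC-content correction (crosses), and the right plot gives the share of tested members called higher (orange) or lower (blue), with dotted lines at the shares over all genes, 11.7% and 10.8%. Leukocyte and antigen presentation lists lie to the right and male-biased, cytochrome P450 and bile acid lists to the left under each setting. The median of the female-biased list (5 tested) lies to the left as well.

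Among genes that were lower in the old livers, those of male-biased, growth hormone-dependent expression stood at the low end. Of 29 tested, 16 were lower and 0 higher (median log2 fold change −1.16), and 20 were lower without vehicle 3 (median −1.65). The sum of the list was 47188, 40971, 32533 and 42021 CPM in young 1 to 4 and 12307, 16116 and 24725 CPM in vehicle 3, 4 and 5. Hsd3b5 (chr3:98618636-98645534), a male-specific steroid reductase, had 352, 303, 306 and 284 CPM in young and 13.1, 0 and 1.28 CPM in vehicle. Hsd3b5 passed the test (log2 fold change −6.97 ± 0.62 (SE), adjusted p = 3.63e-06). Its counts in the old livers were 3, 0 and 1, and the log2 fold change was −8.55 without vehicle 3 and −6.13 without vehicle 4. Mup11, which encodes a major urinary protein that carries pheromones, had 370 counts over the young livers and 2 over the old, a ratio of levels of 146 with a 95% counting interval of 40.1 to 1210. Mup genes are near-identical copies, and Mup11 overlaps Gm2083, so reads may be split among them. Nudt7, a peroxisomal coenzyme A hydrolase, had 1729, 1702, 1244 and 1863 CPM in young and 61.1, 83.1 and 199 CPM in vehicle (log2 fold change −3.78 ± 0.36 (SE), adjusted p = 6.91e-06; −4.46 without vehicle 5). Keg1 (−2.69, −3.47 without vehicle 5), the arachidonic acid hydroxylase Cyp4a12a (−2.66) and the oxysterol hydroxylase Cyp7b1 (−3.38, −4.61 without vehicle 5) were lower too. In the ABT-737-treated livers Hsd3b5 had 19.8, 98.6 and 69.3 CPM. The opposite, female-biased list had 1 of 5 tested genes higher, the steroid enzyme Cyp17a1, with 9.68, 4.47, 20.0 and 9.59 CPM in young and 4.36, 76.1 and 144 CPM in vehicle, where vehicle 3 lay at the young level (log2 fold change 2.93 ± 0.57 (SE), adjusted p = 0.00181), and 0 lower. The median log2 fold change of the 5 tested female-biased genes was −1.05, with 3 negative and 2 positive signs. With 1 library left out, the median ranged from −1.25 to 0.10. Without vehicle 4, 2 of the list were higher and 1 lower, and 1 was lower without young 2 or vehicle 5. The log2 fold change of Cyp17a1 was 2.21 without vehicle 5.

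Enzymes and transporters of the hepatocyte's drug and bile acid metabolism were lower as well. Of 25 cytochrome P450 genes of families 1 to 3, which oxidize drugs and steroids, 13 were lower and 0 higher (median −1.14), with 7 lower without vehicle 4. Cyp2c29 had 1375, 1156, 1519 and 1318 CPM in young and 65.5, 60.9 and 446 CPM in vehicle (log2 fold change −2.76 ± 0.53 (SE), adjusted p = 0.00173; −4.43 without vehicle 5), with vehicle 5 the nearest to young. Of 19 genes of bile acid synthesis and transport, 8 were lower and 0 higher (5 lower without vehicle 4). The uptake transporter Slc10a1 had 389, 337, 544 and 378 CPM in young and 8.73, 18.7 and 119 CPM in vehicle (log2 fold change −2.90 ± 0.52 (SE), adjusted p = 9.94e-04; −4.68 without vehicle 5). The organic anion carrier Slco1a1 had 414, 343, 401 and 329.9 CPM in young and 100.4, 7.02 and 55.2 CPM in vehicle (log2 fold change −3.02 ± 0.49 (SE), adjusted p = 4.52e-04; −2.36 without vehicle 4 and −2.19 after GC-content correction), and the bile acid synthesis enzyme Hsd3b7 fell by 1.52 on the log2 scale. Conjugation genes were lower in 15 of 37 tested and higher in 0, or in 2 without vehicle 3 (median −0.61, −0.32 after GC-content correction), and lower in 8 without young 3 and 6 without vehicle 4. The glucuronosyltransferases Ugt2b34, with 227, 234, 321 and 261 CPM in young and 8.73, 23.4 and 61.6 CPM in vehicle (log2 fold change −2.86 ± 0.36 (SE), adjusted p = 7.11e-05; −3.75 without vehicle 5), and Ugt2a3 (−1.91, −2.62 without vehicle 5 and −1.31 after GC-content correction) led them.

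Of 36 genes of fatty acid oxidation and PPAR-α targets, 14 were lower and 2 higher (median −0.72). Without young 1, young 2, young 4 or vehicle 4 only 1 was higher. Without young 3, 9 were lower and without young 4, 8. The fatty acid hydroxylase Cyp4a10 had 225, 224, 588 and 288 CPM in young and 21.8, 55.0 and 39.8 CPM in vehicle (log2 fold change −2.97 ± 0.48 (SE), adjusted p = 4.88e-04), against 598, 948 and 253 CPM in the ABT-737-treated livers. Etfdh (−1.65), Decr1 (−1.69) and Slc27a2 (−1.63), which serve β-oxidation, were lower, and the mitochondrial carrier Ucp2 was higher (1.51). Cholesterol synthesis genes were lower in 5 of 23 and higher in 1 (lower in 3 without vehicle 4 and 9 without vehicle 5), against 10.8% and 11.7% of all genes. Among those lower was the lanosterol demethylase Cyp51 at −1.47 (−2.07 without vehicle 5). The 1 called higher was lost without young 1, young 2, young 4 or vehicle 5. For fatty acid synthesis 4 of 24 were lower and 2 higher, against 10.8% and 11.7% of all genes. Me1, the NADPH-producing malic enzyme, had 92.9, 58.1, 157 and 102 CPM in young and 13.1, 11.7 and 21.8 CPM in vehicle. Me1 passed the test (log2 fold change −2.66 ± 0.38 (SE), adjusted p = 1.61e-04). Leaving out young 2, young 3, young 4 or vehicle 4 left 2, 1, 2 or 1 called lower, and leaving out any young library left 0 called higher. Of 38 genes of glucose and amino acid metabolism, 7 were lower and 4 higher (11 lower without vehicle 5), against 10.8% and 11.7% of all genes. Among those higher were the insulin signalling adaptor Irs2, with 13.6, 8.94, 13.8 and 11.5 CPM in young and 96.0, 72.6 and 38.5 CPM in vehicle (log2 fold change 2.42 ± 0.40 (SE), adjusted p = 6.03e-04; 3.0 after GC-content correction), and Mat1a (1.22), which makes S-adenosylmethionine in hepatocytes.

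Chaperones of the endoplasmic reticulum and heat shock proteins were lower in 13 of 31 tested and higher in 2 (median −0.57, −0.32 after GC-content correction, where 9 were lower). Hspa5, the chaperone BiP, had 434, 356, 432 and 501 CPM in young and 4.36, 71.4 and 104 CPM in vehicle, with vehicle 3 at 1 count (log2 fold change −2.66 ± 0.41 (SE), adjusted p = 3.18e-04). Herpud1, a component of the degradation of misfolded proteins, had 782, 706, 978 and 691 CPM in young and 153, 295 and 199 CPM in vehicle (log2 fold change −1.85 ± 0.26 (SE), adjusted p = 1.53e-04), and Dnajb9, a partner of BiP, had 40.7, 46.2, 66.0 and 38.4 CPM in young and 0, 4.68 and 7.71 CPM in vehicle. Dnajb9 passed the test (log2 fold change −3.13 ± 0.45 (SE), adjusted p = 3.23e-04). Subunits of oxidative phosphorylation were lower in 13 of 67 and higher in 0, against 10.8% and 11.7% of all genes, around a median of −0.18. They were lower in 8 without young 3 and 8 without vehicle 4, and in 8 after GC-content correction. Sdha, of complex II, fell by 1.34 and Atp5g3, of the ATP synthase, by 1.47 on the log2 scale. Cytosolic ribosomal protein genes were higher in 11 of 45 and lower in 0 (median 0.48), against 11.7% and 10.8% of all genes. They were led by Rps24 (1.56, 0.97 without vehicle 3), but higher in only 7 without young 2, 5 without young 3 and 7 without young 4. Many ribosomal protein genes have processed copies in the genome that may take some of their reads.

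General hepatocyte genes were lower in 4 of 22 and higher in 1 (6 and 3 without vehicle 3, and 4 and 3 without vehicle 4), against 10.8% and 11.7% over all genes. The sum of the list was 164400, 147380, 149300 and 149590 CPM in young 1 to 4 and 136690, 154450 and 178440 CPM in vehicle 3, 4 and 5, so it did not separate the groups. Apob, the structural protein of secreted lipoproteins, had 549.9, 541, 659 and 478 CPM in young and 26.2, 136 and 186 CPM in vehicle (log2 fold change −2.16 ± 0.39 (SE), adjusted p = 0.00103), while Hpx, the haem carrier hemopexin and also an acute-phase protein, rose (1.40). Along the liver lobule, 5 of 14 pericentral genes were lower and 1 higher (8 lower without vehicle 3 and 9 without vehicle 5). Of 15 periportal genes, 2 were lower (1 without any 1 of the young libraries) and 2 higher, near the 10.8% and 11.7% over all genes. The 1 pericentral gene called higher was called in no fit that left out a library other than vehicle 4. Rgn, a calcium-binding protein of pericentral hepatocytes, had 581, 624, 648 and 558 CPM in young and 17.5, 57.4 and 254 CPM in vehicle. Rgn passed the test (log2 fold change −2.35 ± 0.49 (SE), adjusted p = 0.00292; −3.79 without vehicle 5). The urea cycle enzyme Asl, a periportal gene, rose (log2 fold change 1.24 ± 0.30 (SE), adjusted p = 0.00794).

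Several of the other genes that rose most are expressed in leukocytes. Cd52, a surface glycoprotein of lymphocytes, had 5.81, 16.4, 12.3 and 21.1 CPM in young and 445, 208 and 129.7 CPM in vehicle. Cd52 passed the test (log2 fold change 4.13 ± 0.45 (SE), adjusted p = 2.05e-05). Coro1a, an actin regulator of blood cells, had 3.87, 8.94, 9.22 and 9.59 CPM in young and 113, 118 and 75.8 CPM in vehicle (log2 fold change 3.62 ± 0.31 (SE), adjusted p = 2.83e-06), and in the ABT-737-treated livers 11.9, 13.3 and 9.90 CPM. Ptprcap (4.12, 3.52 without vehicle 4), a partner of CD45, Ly6c2 (4.0, 4.73 without young 3), a surface protein of monocytes, the phosphatase Ptpn18 (3.63, 4.26 without young 3), the kinase Syk (3.53), which acts below Fc and B cell receptors, and Pla2g7 (3.63, 4.83 without young 2), a lipase of macrophages, rose as well. Ly6a, the surface protein Sca-1, had 9.68, 8.94, 12.3 and 21.1 CPM in young and 196, 164 and 217 CPM in vehicle (log2 fold change 3.88 ± 0.41 (SE), adjusted p = 1.69e-05), and its liver difference exceeded that of kidney by 3.50 (adjusted p = 1.71e-04). Acnat2, an acyl transferase of the hepatocyte peroxisome, stood apart from this group, with 0, 4.47, 6.14 and 3.84 CPM in young and 39.3, 73.7 and 101 CPM in vehicle (log2 fold change 4.25 ± 0.51 (SE), adjusted p = 4.93e-05) and 71.3, 22.8 and 49.5 CPM in the ABT-737-treated livers.

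Genes that fell most outside the lists named so far include Car3, the carbonic anhydrase of fat, muscle and male liver, with 2339, 1396, 1831 and 2033 CPM in young and 349, 62.0 and 176 CPM in vehicle (log2 fold change −3.35 ± 0.44 (SE), adjusted p = 1.05e-04; −4.0 without vehicle 3 and −2.53 after GC-content correction). Hpgd, which inactivates prostaglandins, had 73.6, 82.0, 119.8 and 65.2 CPM in young and 4.36, 4.68 and 12.8 CPM in vehicle (log2 fold change −3.38 ± 0.38 (SE), adjusted p = 2.56e-05; −4.15 without vehicle 5), and the liver difference lay below that of kidney (−2.94, adjusted p = 0.0136). Phlda1 had 805, 568, 424 and 355 CPM in young and 30.5, 37.5 and 91.2 CPM in vehicle (log2 fold change −3.25 ± 0.48 (SE), adjusted p = 2.60e-04; −3.93 without vehicle 5). The old livers were below the young ones for each of the 3. Pfkfb3, a regulator of glycolysis, fell (−3.36, and −5.21 without vehicle 4), and the medium-chain acyl-CoA synthetase Acsm3 fell too (−3.20, and −4.77 without vehicle 5). Nrep (−3.45, −4.78 without vehicle 5) and Gnai3 (−3.13), an inhibitory G protein subunit, were near the floor in the old livers, with 0, 1 and 4 and 0, 3 and 2 counts. Serpina4-ps1, a pseudogene, had 575, 851, 564 and 1011 CPM in young and 100.4, 3.51 and 16.7 CPM in vehicle (log2 fold change −4.74 ± 0.66 (SE), adjusted p = 1.53e-04; −6.21 without vehicle 3 and −3.99 without vehicle 4), and Gm2083, a Mup-like gene with 6 copies in the table that overlaps Mup11, had a log2 fold change of −3.58 (−4.33 without vehicle 3 and −2.86 without vehicle 4). The uncharacterized 1500017E21Rik had 112 counts over the young and 3 over the old livers, a ratio of levels of 29.5 with a 95% counting interval of 9.82 to 145.

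Set against the other organs over all 13107 genes tested in the joint fit, the liver difference departed from that of kidney in 103 genes (0.786%; 54 without vehicle 4 and 67 without young 3) and from that of lung in 1499 (11.4%). Both comparisons share the liver libraries, and kidney and lung came from mice of the same groups. The leukocyte genes Ccl5, Nkg7, Thy1, Cd52 and Ly6c2 rose in kidney and lung as well, with log2 fold changes of 4.05, 2.99, 2.70, 2.40 and 2.97 in kidney and 4.46, 4.20, 3.21, 3.05 and 4.27 in lung in the same order (all adjusted p under 0.05), and for none of these 5, chosen after their values were seen, did the liver difference depart from either organ at this threshold. For other genes expressed in leukocytes it did, with liver minus lung differences of 6.57 for Prtn3, 2.24 for Syk and 2.67 for Ly6a. Nudt7 fell in liver and was not called in kidney (−0.78) or lung (−0.01), and both differences passed (−2.96, adjusted p = 1.50e-04, and −3.74, adjusted p = 1.48e-06). Hsd3b5 was listed at a level of 0 in both groups of kidney and lung.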

How the data were processed

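The counts were deposited by the authors as whole-number read counts per RefSeq gene, without normalization. They came from bulk MARS-seq libraries, which read the 3′ ends of transcripts. The submitters' processing notes name bcl2fastq, HISAT 0.1.5, HOMER and the mm10 build. Collapsing of molecule barcodes and use of strand in counting are not given in the sources used here, so intervals cover counting error only, and p-values measure the spread between mice.

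All 10 liver libraries (4 young, 3 vehicle, 3 ABT-737) were fitted in R 4.3.3 with edgeR 4.0.16 (filterByExpr, TMM, quasi-likelihood test, Benjamini-Hochberg adjustment, threshold 0.05). The biological coefficient of variation was 23.5%. Replicates 4 and 5 of the ABT-737 livers carry other compound numbers in their treatment labels and were grouped by title. Differences between tissues were interaction terms of 1 fit to 30 libraries of liver, kidney and lung. Whether the organs came from the same mice is not stated, and the fit took the libraries as independent. Levels are CPM of normalized library size, where 3 counts were 13.09 CPM in vehicle 3 and 3.512 to 5.809 CPM in the other 6. Log2 fold changes are those of the fit. No 2 libraries of a group agreed within sampling noise. Of the genes tested, 54 shared identical counts in 14 sets.

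The members and lists were chosen with earlier results of these data known. Named genes are all tested core clock genes, the 12 called acute-phase genes with the largest change, the 15 that rose and 15 that fell most among other genes that were called, did not overlap and were called whichever library was left out, up to 6 members of each other list by smallest p, and Prf1, Cdkn2a and Cdkn2b. Some genes that the rule names are not reported here. Alternatives were RLE size factors, scaling without acute-phase and Mup genes, DESeq2 1.42.0, a laxer filter (1 count) and a stricter one (10 counts in each library), a fit of the 7 libraries alone, a block for replicate number, and each library left out. Correction of each library for GC content (a lowess curve of span 0.667 against the GC content of the last 500 bases, with 243 genes unmatched) was added after the data were seen. Promoter windows were taken from RefSeq on GRCm38.p6. The method was tested on simulated counts.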

Additional observations from a re-analysis of the deposited data

Results flagged for a closer look

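Within the 4 young livers, 9 of 91 values tested had 1 library far from the others, where chance alone puts about 1 in 20 groups past this limit. The figure given is the gap from that library to the nearest other one as a share of the whole range of the group, beyond the 95% critical value of Dixon's test for 4 samples. Young 2 was the highest library for Saa2 (0.8813), Saa1 (0.8577), Lcn2 (0.857) and Prtn3 (1), so the acute-phase increase is measured against a young group in which 1 mouse was above the others. Young 4 was apart for Ccl5 (0.9412), and young 1 for Coro1a (0.8863) and for the summed levels of hepatocyte genes (0.8702), exocrine pancreas genes (0.8675) and oxidative phosphorylation genes (0.9069). Counts in young 1 to 4 were 3, 4, 4 and 6 for Ccl5 and 2, 6, 6 and 5 for Coro1a. Those of Prtn3 were 0, 5, 0 and 0 and those of Lcn2 0, 9, 0 and 1, so the flags of these genes rest on few counts.

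The difference between old vehicle-treated and young mice was itself different in liver and kidney for 11 named genes, by the interaction term of the joint fit. The liver log2 fold change lay above that of kidney for Mt2 (7.347), Lcn2 (4.953), Mt1 (5.807), Cdkn1a (3.859), Acnat2 (2.793) and Ly6a (3.495), and below it for Nudt7 (−2.958), Nrep (−3.469), Hpgd (−2.943), Pfkfb3 (−3) and Phlda1 (−3.001).

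Liver and lung differed in the same way for 25 named genes. The liver log2 fold change lay above that of lung for Hlf (1.76), Rora (1.664), Tef (1.233), Mt2 (7.071), Lcn2 (7.235), Saa2 (8.161), Mt1 (5.644), Saa1 (5.365), Orm3 (6.193), Orm2 (4.657), Orm1 (4.344), Hp (2.513), Prtn3 (6.571), Cdkn1a (4.896), Ly6a (2.668) and Syk (2.236). It lay below that of lung for Saa3 (−4.447), Nudt7 (−3.736), Hpgd (−4.032), Cyp7b1 (−3.978), Pfkfb3 (−2.955), Car3 (−3.385), Phlda1 (−2.779), Dnajb9 (−4.175) and Gnai3 (−4.576). Liver differences without vehicle 3 or after GC-content correction are given for only some of these genes, in the comparison of the livers. What sets the organs apart was not tested.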

How the results depend on the processing

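The number of genes called was 1942 with no filter beyond 1 count, 496 with at least 10 counts in every library and 859 to 1486 with 1 library left out. Under the filter of 10 counts, 8 clock, 22 acute-phase and 466 other genes were called, and 1874 other genes with no filter, both filters testing other numbers of genes. Leaving out 1 library gave 14 to 21 clock, 24 to 44 acute-phase and 820 to 1421 other genes. With the replicate block (replicate number as a term), 291 genes were called, 11 clock, 14 acute-phase and 266 other. Only numbers 3 and 4 occur in both groups, and the same-numbered libraries did not deviate together (correlations −0.0884 and −0.0561). The labels do not say whether the numbers link mice or handling, and so few pairs cannot settle it. With RLE size factors 1277 genes were called, 588 higher and 689 lower. The liver minus kidney difference was called for 155 genes without the filter, 232 by DESeq2 and 54 to 146 with 1 library left out.

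Per1 and Cry2, which were not called, changed sign. Per1 had a log2 fold change of −0.0411 with RLE, −0.00551 with scaling without acute-phase and Mup genes, −0.0697 with no filter, −0.14 with GC-content correction, −0.34 with that correction and without vehicle 3, and −0.26 to 0.40 with 1 library left out. Cry2 had 0.00913 with the replicate block and −0.45 to 0.15 with 1 library left out. The cause was not tested. Of the other values of named genes, 778 kept their direction and side of the threshold, 13 lost the call and 3 gained it. The genes that rose or fell most had been named only where called whichever library was left out. Their values in those fits could therefore not lose the call, and they are among the 778. At the depth of vehicle 3, 3 counts are 13.09 CPM, so low genes there rest on few counts.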
